A study of Mus musculus with 14 samples.

Results

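The 37 genes described here encode the machinery that copies DNA and the regulators that bring a cell from G1 into S phase. They were chosen by name: a probe belonged to the group if its gene name in the scanner files was one of the 37 members. All 37 were found, on 51 probes, of which 47 passed the filter on dim probes, and all 37 were among the 16022 genes tested. RNA levels were read on 14 Agilent arrays of 1 colour from bone marrow-derived mast cells (BMMCs), grown from mouse marrow in medium with IL-3 over 4 to 6 weeks. The donor mice were wild-type or lacked Pla2g3 by their labels, the gene of group III phospholipase A2, a secreted lipid-cleaving enzyme, and the strain label, which begins with C57BL/6, is the same for both genotypes. The 4 groups were wild-type BMMCs (n = 3), knockout BMMCs (n = 4), wild-type cocultured cells (n = 4) and knockout cocultured cells (n = 3). Cocultured cells spent 4 days on a layer of Swiss 3T3 cells, a mouse fibroblast line, with 100 ng/ml stem cell factor (SCF), and nonadherent cells were then harvested. SCF is named only in the coculture step, so SCF and fibroblasts cannot be told apart. The labels give a purity above 97% for BMMCs and above 99% for cocultured cells by Kit and FceRIa staining. Nothing in them ties replicates to separate donors or cultures, and p-values reflect the spread among these arrays, which may be technical.

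A chromosome is copied from origins that are prepared in G1: the origin recognition complex (Orc1, Orc6) with Cdc6 and Cdt1 loads the Mcm2 to Mcm7 ring, the core of the helicase. At S phase the ring is switched on by Cdc45, the GINS complex and Mcm10, and primase and polymerases then extend DNA on the sliding clamp Pcna. Many of these genes are switched on at the G1/S border by E2F transcription factors, which cyclin E with Cdk2 helps to release from inhibition. In mast cells, growth depends on IL-3 and on SCF acting through Kit. The arrays name Cdc45, Orc1 and Orc6 by the older symbols Cdc45l, Orc1l and Orc6l.

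Promoter sequence was read for 31 of the 37 members from RefSeq (GRCm38.p6), as the 250 bases before and 50 after each start site. An E2F-type motif (TTTCCCGC, TTTGGCGC, TTTCGCGC or TTTGCCGC, either strand, overlaps allowed) occurred in 12 of the 31 (38.7%) and in 704 of 27025 genes in the table (2.605%). A CCAAT motif on either strand occurred in 19 of the 31 (61.3%), against 41.1% of all genes in the table. The 170 bases before the start site are printed here for 5 members that hold an E2F-type motif there, and for Cdt1, which followed the other members least, and Ung, the member called in coculture, with each match in capitals. They lie at chr1:128359706-128359875 (minus strand, Mcm6), chr8:75109339-75109508 (plus, Mcm5), chr4:108579284-108579453 (plus, Orc1l), chr11:98907981-98908150 (plus, Cdc6), chr5:151651209-151651378 (minus, Rfc3), chr8:122567845-122568014 (plus, Cdt1) and chr5:114130265-114130434 (plus, Ung).
Mcm6: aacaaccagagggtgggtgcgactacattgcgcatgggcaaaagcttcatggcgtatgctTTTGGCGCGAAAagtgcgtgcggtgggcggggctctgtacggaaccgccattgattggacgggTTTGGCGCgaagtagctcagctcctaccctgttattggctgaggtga
Mcm5: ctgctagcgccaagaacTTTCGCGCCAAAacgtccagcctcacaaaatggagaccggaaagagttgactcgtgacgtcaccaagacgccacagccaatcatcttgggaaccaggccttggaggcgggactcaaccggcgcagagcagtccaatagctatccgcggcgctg
Orc1l: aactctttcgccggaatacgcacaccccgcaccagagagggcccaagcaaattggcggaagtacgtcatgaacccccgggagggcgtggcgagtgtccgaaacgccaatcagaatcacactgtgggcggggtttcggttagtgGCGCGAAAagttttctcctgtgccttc
Cdc6: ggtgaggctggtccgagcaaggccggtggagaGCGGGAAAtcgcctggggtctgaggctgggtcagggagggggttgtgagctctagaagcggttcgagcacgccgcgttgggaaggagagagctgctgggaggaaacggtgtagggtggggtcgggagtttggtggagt
Rfc3: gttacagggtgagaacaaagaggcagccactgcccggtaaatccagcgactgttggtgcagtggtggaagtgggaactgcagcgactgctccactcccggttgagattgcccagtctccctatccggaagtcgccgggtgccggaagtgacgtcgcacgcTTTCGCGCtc
Cdt1: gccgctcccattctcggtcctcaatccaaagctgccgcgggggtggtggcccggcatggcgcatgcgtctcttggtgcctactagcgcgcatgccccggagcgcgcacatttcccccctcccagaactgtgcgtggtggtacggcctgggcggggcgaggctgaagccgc
Ung: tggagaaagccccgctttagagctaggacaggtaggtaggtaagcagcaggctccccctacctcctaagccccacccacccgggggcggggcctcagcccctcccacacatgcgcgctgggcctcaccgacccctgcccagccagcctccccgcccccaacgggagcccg
The stretches of Cdt1 and Ung hold no match, and the 1 match of Cdt1 lies in the 300-base window outside the stretch shown. A match is a run of letters and not a measured binding site.

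Between 17550 and 23031 probes were well above background per array (42.8% to 55.9%), and precision is limited by how few arrays each group has. Levels are log2 signal minus the 75th percentile of the array, so 0 is the level of a probe at that percentile, and a level of one gene cannot be set against that of another. Mast cell markers, Kit and Cpa3 among them, had array medians of 7.02 to 8.02 in all groups, with 7 to 9 of the 9 well above background on each array. The Pla2g3 probe gave a higher signal on the arrays labelled knockout BMMC (-1.92 to -1.27) than on those labelled wild-type BMMC (-4.63 to -2.91). The deleted part of the gene is not given in the sources used here, so this probe does not settle the labels. After coculture it was at -4.23, -3.15, -4.07 and -2.13 on arrays labelled wild-type and at -3.13, -1.70 and -1.88 on those labelled knockout, and the groups overlapped. The probe was not well above background on wild-type BMMC arrays 1 and 2 or on wild-type cocultured arrays 1 and 3. Genotypes below are those of the labels. Of 20 fibroblast markers (collagens and other matrix genes), 1 to 4 were well above background on each BMMC array and 12 to 20 on each cocultured array. Their array median was -6.49 to -4.78 in BMMCs, 1.15, 3.03, -2.22 and 1.21 on wild-type cocultured arrays 1 to 4, and -2.36, -1.31 and 0.63 on knockout cocultured arrays 1 to 3.

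The replication genes separated the cocultured arrays, but not by genotype. Their array median was 1.64, 1.98 and 1.1 in wild-type BMMCs and 1.91, 2.01, 1.09 and 1.63 in knockout BMMCs. It was 1.35, 0.81, 2.03 and 0.48 on wild-type cocultured arrays 1 to 4, and 1.98, 2.45 and 0.54 on knockout cocultured arrays 1 to 3. Wild-type cocultured 3 was thus as high as knockout cocultured 1, and knockout cocultured 3 as low as wild-type cocultured 4. These 2 arrays shared slide 4, which was scanned on another day than slides 1 to 3. In these genes and in the fibroblast markers both stood with arrays of the other genotype. On the Pla2g3 probe both (wild-type 3 at -4.07, knockout 3 at -1.88) lay in the BMMC range of their own label. Wild-type cocultured 4 (-2.13) and knockout cocultured 1 (-3.13) lay outside theirs. The reading of wild-type cocultured 3 was not well above background, nor were those of wild-type BMMC 1 and 2. Whether the labels of the 2 cocultured arrays of slide 4 are right cannot be settled from the sources used here. Every comparison of genotypes in coculture, and each coculture change, depends on them. Knockout BMMC 4, on the same slide, lay among the other BMMC arrays. In coculture the 3 arrays of highest replication median were the 3 of lowest fibroblast median, and the part of fibroblast RNA in the values below was not tested. Comparisons of groups that rest on the cocultured pair of slide 4 are given with and without it. That omission was chosen with earlier results of these data known, on arrays that ran against the others of their genotype. Calls made without the pair are therefore a description and not independent evidence.

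**Figure D1:**
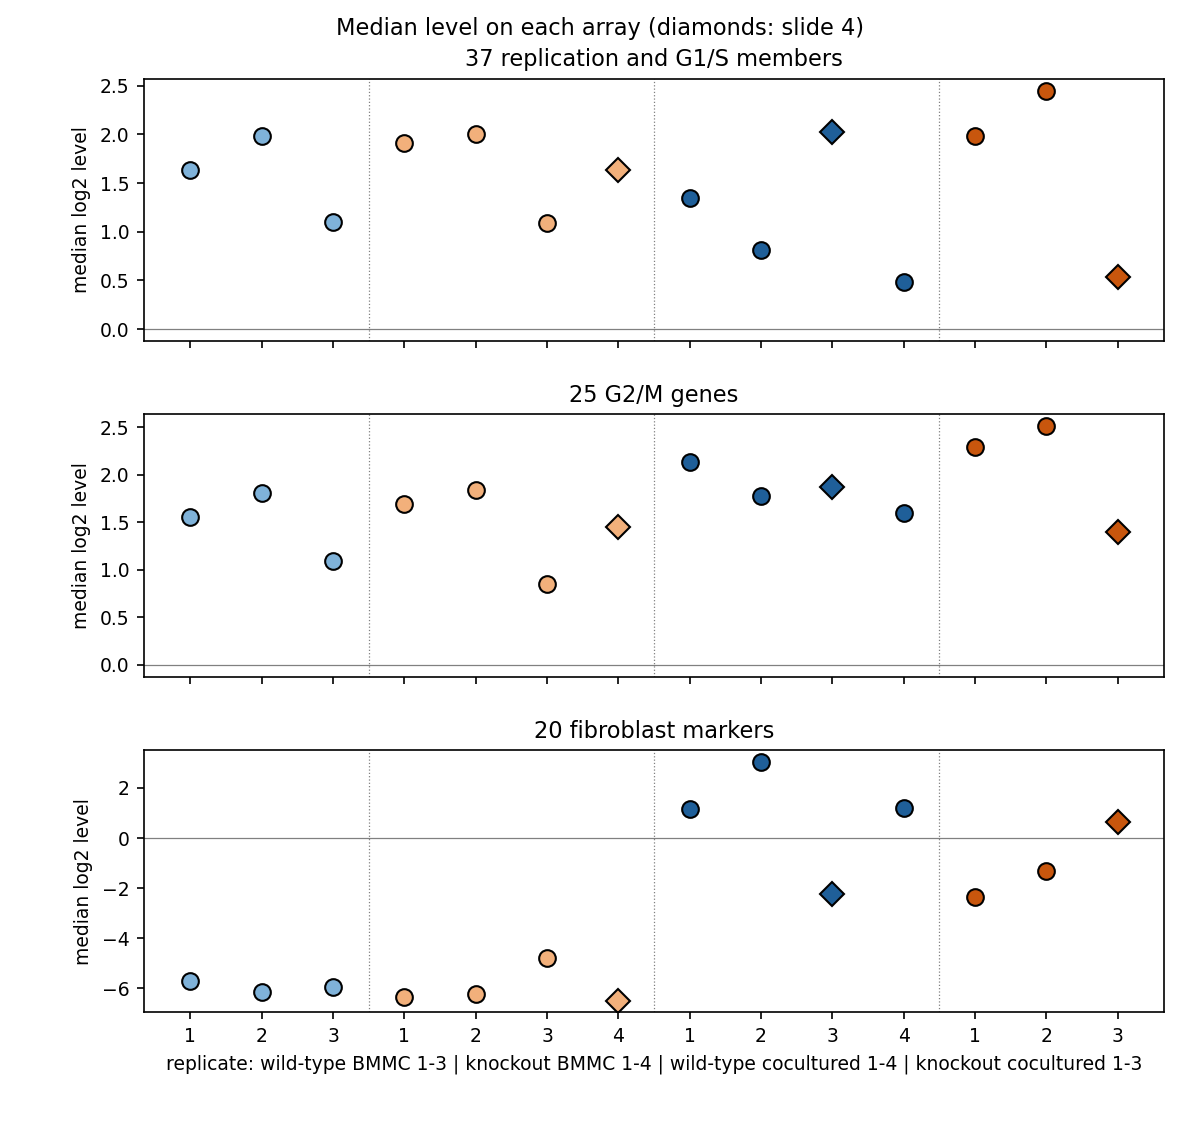
Median log2 level (75th percentile of the array = 0) of the 37 replication and G1/S genes, 25 G2/M genes and 20 fibroblast markers on each of the 14 arrays, in the order of the groups along the x axis, with diamonds for slide 4. The replication median ran from 0.48 to 2.45 in coculture, where wild-type array 3 (2.03) and knockout array 3 (0.54) each stand beside arrays of the other genotype, and the fibroblast median ran the other way.

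Within groups the members rose and fell together from array to array. For each gene the deviation of an array from its group mean was correlated, over 14 arrays, with the mean deviation of the other members; the arrays share scaling and hybridisation, so this describes the arrays and no test was made. The median r was 0.909 for the 37 members, and 28 had r over 0.8, against a median of 0.02 and a share over 0.8 of 6.41% among all 16022 genes. The ring subunits Mcm2 (0.979), Mcm7 (0.978) and Mcm6 (0.974), the GINS subunits Gins1 (0.978) and Gins2 (0.977) and the clamp loader subunit Rfc5 (0.975) followed the group most closely. Cdt1 (-0.00196), Prim2 (0.42), Chaf1b (0.53) and Cdk2 (0.61) followed it least. Members with an E2F-type motif had a median r of 0.911 (n = 12, from -0.00196 to 0.978). Those without one had a median of 0.905 (n = 19, from 0.526 to 0.980). The motif was read as exact letters near the start site, so this comparison cannot decide whether E2F acts on a member.

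**Figure D2:**
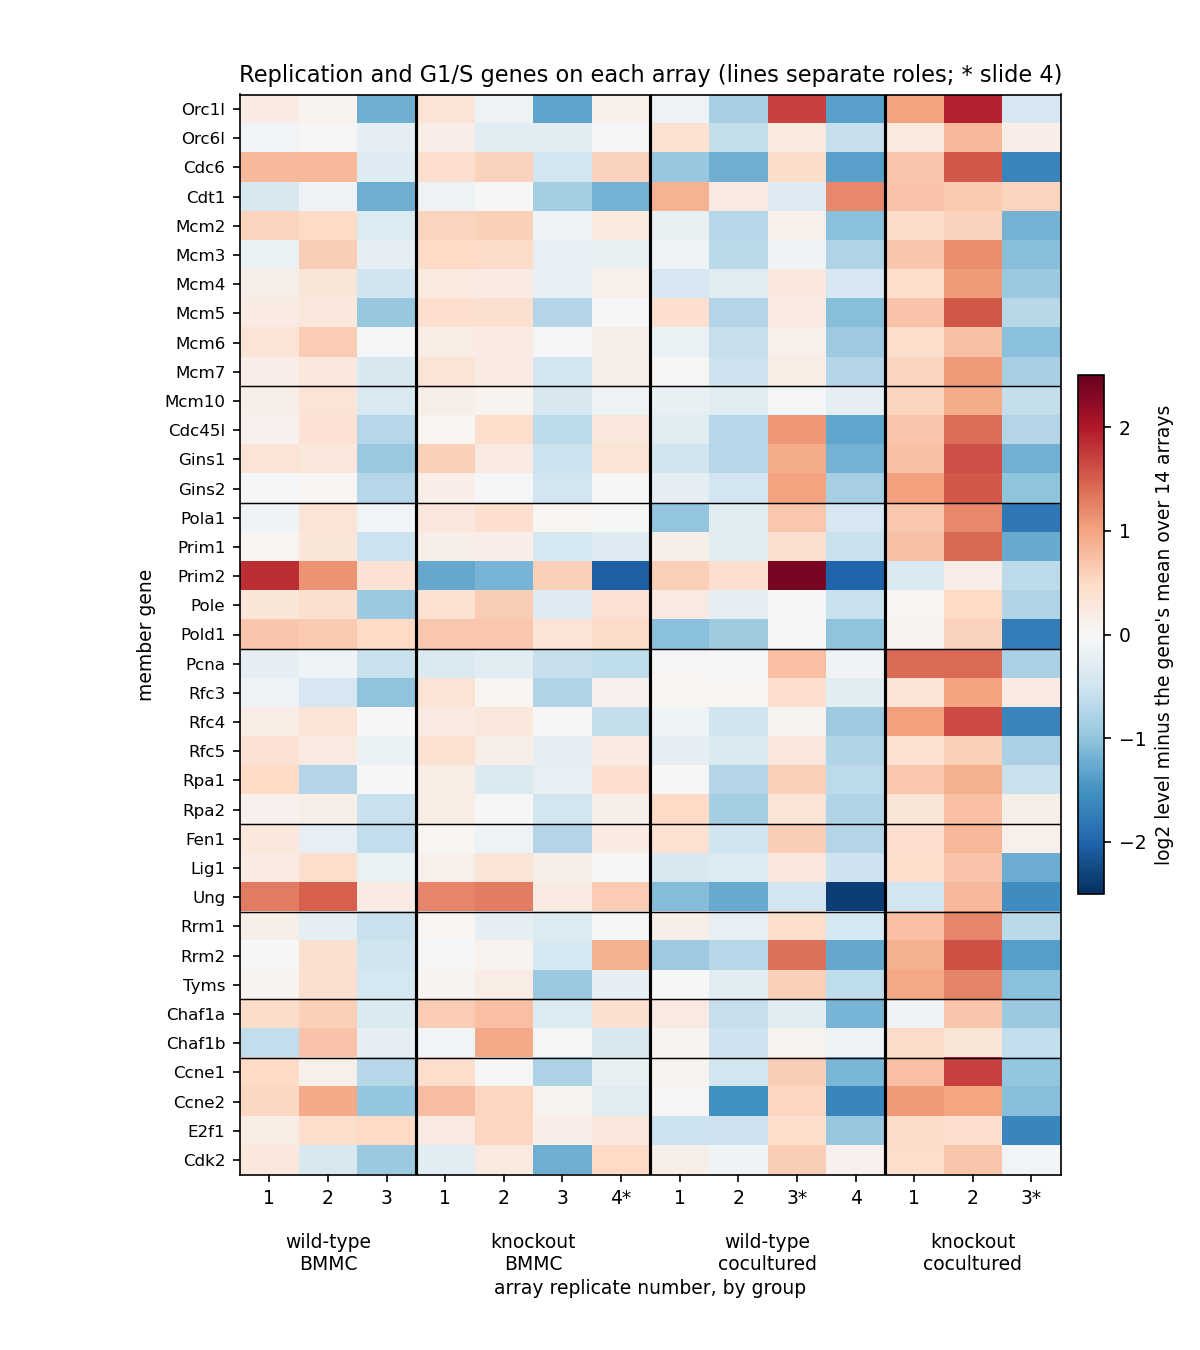
Level of each of the 37 genes (rows, grouped by role) on each of the 14 arrays (columns, asterisk for slide 4), as the difference in log2 from that gene's mean over all arrays. Wild-type cocultured arrays 2 and 4 and knockout cocultured array 3 are low across most rows, knockout cocultured arrays 1 and 2 are high, and the rows of Cdt1 and Prim2 follow a pattern of their own.

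The spread between arrays of a group was accordingly large after coculture of knockout cells. The median SD of the members there was 1.06, against 0.53 for all genes in the same group, and it ranged from 0.09 for Cdt1 to 1.75 for Rfc4. In wild-type cocultured cells the median SD was 0.52 for the members and 0.54 for all genes. In BMMCs it was 0.45 (wild-type) and 0.40 (knockout), against 0.29 and 0.36. BMMC array 3 of each genotype, both on slide 3, had the lowest replication median of its group. Wild-type cocultured 2 (0.81) and 4 (0.48), the lowest of their group, were on slide 3 as well.

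In wild-type cells 1 of 37 members was lower after coculture and 36 were not called, at an adjusted p under 0.05 in limma over all 16022 genes; 12.6% of all genes were called and 6.28% were called lower. The median log2 change of the members was -0.21, against -0.01 for all genes, and 28 of 37 were below 0; with the authors' values, which raised the median of all genes to 0.43, 13 of 20 members tested were above 0 and their median of 0.23 was still below that of all genes. In knockout cells 0 of 37 members passed, and 3 had an unadjusted p under 0.05, where 14.5% of all genes were called. The median there was 0.33, against 0.11 for all genes, and 25 of 37 were above 0. This direction turned with normexp background correction (median -0.05, against 0.18 for all genes, 16 above 0). It also turned with the authors' values (median -0.15, against -0.13 for all genes, 8 of 20 above 0). Without the cocultured pair of slide 4, 6 members passed in wild-type cells, 5 lower and 1 higher, against 22.9% of all genes (12.7% lower and 10.2% higher), and 11 passed in knockout cells, all higher, against 31.4% of all genes called and 20% called higher. In that setting 10 members were lower in wild-type cells with no overlap of arrays, against 21.2% of all genes, and 27 were higher in knockout cells with no overlap, against 33.3%. In bulk RNA, fewer cycling cells and less of these RNAs per cell cannot be told apart.

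Ung, the uracil DNA glycosylase that removes uracil from newly made DNA, was the member that passed. Its level was 0.48, 0.68 and -0.61 on wild-type BMMC arrays 1 to 3, and -1.90, -2.09, -1.30 and -3.17 on wild-type cocultured arrays 1 to 4. All 4 cocultured arrays lay below all 3 BMMC arrays. Ung fell by 2.29 (SE 0.56, adjusted p = 0.0179 in limma), from 0.18 ± 0.69 (SD, n = 3) to -2.11 ± 0.78 (SD, n = 4). With normexp background correction the fall was smaller, at -1.23 (adjusted p = 0.0177). The adjusted p ranged from 0.00343 to 0.0834 over the alternatives run, which do not include the authors' values, and the call ended without wild-type BMMC 1 (0.072) or wild-type BMMC 2 (0.0834). In knockout cells Ung was at 0.39, 0.47, -0.60 and -0.18 before coculture and at -1.30, -0.004 and -2.38 after it, and the change of -1.25 (SE 0.56, adjusted p = 0.158) did not pass. Knockout cocultured 2 lay among the BMMC arrays. The difference between these changes was 1.05 (SE 0.80, adjusted p = 0.995), so a difference in the response of Ung by genotype was not detected. Of the other 2 genes of this role, Fen1, the flap endonuclease, changed by 0.13 (SE 0.37) and 0.61 (SE 0.37) in wild-type and knockout cells, and Lig1, the ligase that seals nicks, by -0.41 (SE 0.40) and -0.18 (SE 0.40); neither passed with all arrays.

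Among genes of origin recognition and helicase loading, 0 of 10 passed in either coculture comparison with all arrays. Cdt1, which brings the Mcm ring to origins, was the member of lowest adjusted p. It was at 2.56, 2.88 and 1.75 in wild-type BMMCs and at 3.83, 3.19, 2.65 and 4.17 after coculture, so that wild-type cocultured 3 overlapped the BMMC range. In knockout cells it was at 2.83, 2.96, 2.12 and 1.78 before and at 3.69, 3.62 and 3.52 after, with no overlap. The change was 1.06 (SE 0.41, adjusted p = 0.111) in wild-type and 1.18 (SE 0.41, adjusted p = 0.0689) in knockout cells. In wild-type cells it passed with slide as a block (1.35, adjusted p = 0.0375) and with the authors' values (1.69, adjusted p = 0.0229). Without the slide 4 pair both passed, at 1.33 (SE 0.39, adjusted p = 0.0333) and 1.23 (SE 0.42, adjusted p = 0.046). In 29 of 37 members wild-type cocultured 3 and knockout cocultured 1 and 2 were the 3 highest of the 7 cocultured arrays. These 3 arrays have the highest replication medians, so the count follows in part from their choice. The share over all genes was not computed. Cdt1 was not among the 29: wild-type cocultured 4, lowest in the array median, was highest in Cdt1.

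Cdc6, the loader ATPase, was at -0.63, -0.62 and -1.76 in wild-type BMMCs and at -2.40, -2.67, -0.98 and -2.79 on wild-type cocultured arrays 1 to 4. Array 3 lay inside the BMMC range and the other 3 arrays below it. The change was -1.21 (SE 0.67, adjusted p = 0.282) with all arrays and -1.62 (SE 0.39, adjusted p = 0.0128) without the slide 4 pair. In knockout cells Cdc6 was at -1.03, -0.87, -1.90 and -0.87 before coculture and at -0.75, 0.12 and -3.10 after it, with arrays on both sides of the BMMC range. Orc1l, the largest subunit of the origin recognition complex, was at -2.58, -3.29, -0.75 and -3.82 on wild-type cocultured arrays and at -1.47, -0.55 and -2.87 on knockout ones. Its level was again high on wild-type array 3 and low on knockout array 3. Orc6l, the smallest subunit, varied less, from 2.80 to 3.76 on wild-type and from 3.56 to 4.21 on knockout cocultured arrays.

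Of the 6 subunits of the Mcm ring, 4 had wild-type array 3 and knockout arrays 1 and 2 as the 3 highest cocultured arrays, and in Mcm3 and Mcm5 wild-type array 1 lay above wild-type array 3. This count too follows in part from the choice of arrays with high replication medians, and has no share over all genes beside it. Mcm6 was at 5.63, 5.91 and 5.23 in wild-type BMMCs, and at 5.11, 4.72, 5.42 and 4.38 after coculture. In knockout cells it was at 5.46, 5.48, 5.23 and 5.43 before coculture and at 5.72, 6.02 and 4.25 after it. Knockout cocultured arrays 1 and 2 lay above and array 3 below every knockout BMMC array. In wild-type cells the change of Mcm6 was -0.69 (SE 0.39, adjusted p = 0.293) with all arrays and -0.86 (SE 0.24, adjusted p = 0.0252) without the slide 4 pair. The other 5 subunits changed by -0.69 (Mcm2) to -0.13 (Mcm5) in wild-type cells and by -0.37 (Mcm2) to 0.51 (Mcm5) in knockout cells with all arrays, and none passed in these comparisons with or without the pair.

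Of the 4 genes of helicase activation, Mcm10, Cdc45l, Gins1 and Gins2, 0 passed with all arrays. Gins2, a GINS subunit, was at -0.06, 0.01 and -0.75 in wild-type BMMCs and 0.12, -0.09, -0.51 and -0.03 in knockout BMMCs. After coculture it was at -0.28, -0.52, 0.98 and -0.86 on wild-type and at 1.0, 1.51 and -1.03 on knockout arrays. The 3 high arrays were wild-type 3 and knockout 1 and 2, and the other 4 lay within or below the BMMC range. Its change in knockout cells was 0.62 (SE 0.55, adjusted p = 0.493), and 1.39 (SE 0.29, adjusted p = 0.00581) without the slide 4 pair. Mcm10, which helps to start the helicase, changed by 0.37 (SE 0.33, adjusted p = 0.49) there and by 0.82 (SE 0.24, adjusted p = 0.0274) without the pair.

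Polymerase and primase genes differed among themselves. Pold1, the catalytic subunit of polymerase delta, was at 2.03, 1.98 and 1.82 in wild-type BMMCs and at 0.29, 0.45, 1.34 and 0.32 after coculture. All 4 cocultured arrays were below the BMMC arrays, with array 3 nearest to them. The change of -1.34 (SE 0.45, adjusted p = 0.068) missed the threshold with all arrays but passed with quantile normalization (-1.37, adjusted p = 0.047), and Pold1 fell by 1.59 (SE 0.19, adjusted p = 0.000259) without the slide 4 pair. In knockout cells it was at 2.02, 2.01, 1.67 and 1.81 before coculture and at 1.40, 1.91 and -0.39 after it, a change of -0.91 (SE 0.45, adjusted p = 0.195) that passed with normexp (-1.03, adjusted p = 0.0414). Pold1 has 2 kept probes, both across exon junctions by their mm9 positions, and they tracked each other over the 14 arrays (r = 0.995). Their 60-base sequences, with that of the Pcna probe, are given because the values of these genes rest on them.
Pold1, used, chr7:51788221-51788589 (minus): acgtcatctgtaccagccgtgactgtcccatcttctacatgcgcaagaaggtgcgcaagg
Pold1, other, chr7:51788621-51788751 (minus): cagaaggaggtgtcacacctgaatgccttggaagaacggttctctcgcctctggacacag
Pcna, chr2:132075420-132075557 (minus): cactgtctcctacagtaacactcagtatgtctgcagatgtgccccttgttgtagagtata
The other Pold1 probe gave a change of -1.31 in wild-type cells, beside -1.34 for the one used.

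Prim2, the large subunit of primase, had the widest spread of any member in knockout BMMCs (SD 1.12) and in wild-type cocultured cells (SD 1.80). It was at 1.55, 0.83 and 0.07 in wild-type BMMCs and at -1.57, -1.45, 0.30 and -2.34 in knockout BMMCs. After coculture it was at 0.31, 0.12, 2.08 and -2.29 on wild-type arrays and at -0.67, -0.12 and -0.95 on knockout arrays. Knockout BMMC 3 was the one knockout BMMC array inside the wild-type range. The difference between knockout and wild-type BMMCs was -2.08 (SE 0.84, adjusted p = 1). Prim1, the catalytic primase subunit, followed the group instead, at 2.15, 1.74, 2.41 and 1.44 on wild-type and 2.74, 3.44 and 0.73 on knockout cocultured arrays. Pola1, the catalytic subunit of polymerase alpha, ranged from -0.15 to 2.82 after coculture of knockout cells, and Pole, that of polymerase epsilon, from -0.04 to 1.20.

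Pcna, the sliding clamp, was at 5.61, 5.72 and 5.27 in wild-type BMMCs and at 5.48, 5.54, 5.25 and 5.20 in knockout BMMCs. After coculture it was at 5.86, 5.84, 6.59 and 5.74 on wild-type and at 7.24, 7.25 and 5.02 on knockout arrays. All 4 wild-type cocultured arrays lay above their BMMC arrays, array 3 by the most, whereas in knockout cells arrays 1 and 2 lay far above and array 3 below. The change was 0.47 (SE 0.45, adjusted p = 0.579) in wild-type and 1.14 (SE 0.45, adjusted p = 0.114) in knockout cells. Without the slide 4 pair it was 0.28 (SE 0.18, adjusted p = 0.304) and 1.88 (SE 0.19, adjusted p = 0.000147). Of the clamp loader genes, Rfc4 ranged most, at 3.21, 3.83 and 0.54 on knockout cocultured arrays, and rose by 1.34 (SE 0.31, adjusted p = 0.00901) in knockout cells without the pair. Rfc3 (0.58, SE 0.32, in each genotype), Rfc5 and the subunits of the single-strand binding protein, Rpa1 and Rpa2, did not pass in either coculture comparison with or without it. Between cocultured genotypes without the pair, Rfc5 (0.95, SE 0.26, adjusted p = 0.0233) and Rpa1 (1.25, SE 0.38, adjusted p = 0.0352) were called higher in knockout cells.

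**Figure D3:**
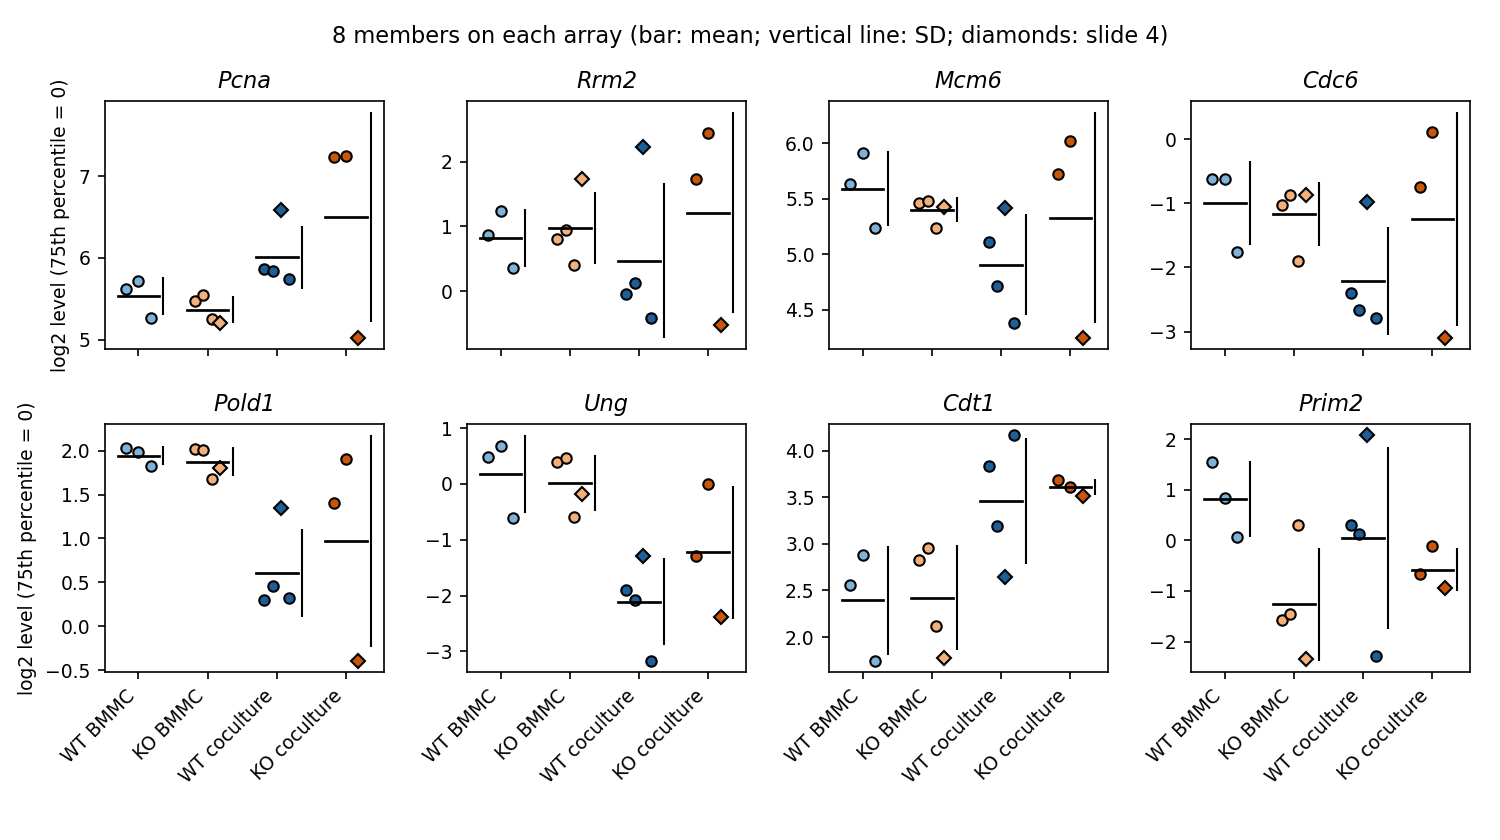
Log2 level (75th percentile of the array = 0) of 8 members on each array of the 4 groups, with the group mean as a bar, the SD as a vertical line and diamonds for slide 4. Pcna, Rrm2, Mcm6, Cdc6 and Pold1 show the cocultured diamonds on the side of the other genotype, Ung is lower on all 4 wild-type cocultured arrays than on the BMMC arrays, and Cdt1 is higher on all 3 knockout cocultured arrays than on the knockout BMMC arrays.

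The 3 genes of deoxynucleotide supply did not pass with all arrays. Rrm2, the S-phase subunit of ribonucleotide reductase, was at -0.05, 0.13, 2.23 and -0.42 on wild-type and at 1.73, 2.45 and -0.53 on knockout cocultured arrays, against 0.36 to 1.24 in wild-type and 0.41 to 1.73 in knockout BMMCs. Wild-type cocultured 3 lay above its BMMC range and the other 3 below it, while knockout cocultured array 2 lay above its BMMC range, array 3 below it and array 1 level with its highest array. Without the slide 4 pair all 3 rose in knockout cells: Rrm2 by 1.12 (SE 0.38, adjusted p = 0.0466), Rrm1, the large subunit, by 1.13 (SE 0.26, adjusted p = 0.00837) and Tyms, thymidylate synthase, by 1.33 (SE 0.34, adjusted p = 0.0147). The chromatin assembly genes Chaf1a and Chaf1b, which load histones on new DNA, were not called with or without the pair. They changed by -0.68 (SE 0.44) and -0.07 (SE 0.40) in wild-type cells with all arrays.

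Among the G1/S regulators, E2f1, a transcription factor of this program, was at -0.04, 0.21 and 0.28 in wild-type BMMCs and at -0.76, -0.73, 0.21 and -1.17 after coculture. Array 3 again lay in the BMMC range and the other 3 below it. The change was -0.76 (SE 0.46, adjusted p = 0.33), and -1.04 (SE 0.19, adjusted p = 0.00312) without the slide 4 pair. In knockout cells E2f1 was at 0.24, 0.20 and -1.86 after coculture, against -0.05 to 0.31 before. Ccne1 and Ccne2 encode the cyclins E that activate Cdk2. Ccne1 was at 1.08, 0.54, 1.61 and -0.15 on wild-type and at 1.74, 2.70 and 0.01 on knockout cocultured arrays. Cdk2, the kinase, varied far less, from -2.79 to -2.06 and from -2.74 to -1.97. Within this role, the regulator and the cyclins moved with the group and the kinase did so least.

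Before coculture the genotypes did not differ in these genes at the threshold. Of 37 members 0 passed between knockout and wild-type BMMCs in limma, and 1 (Prim2) had an unadjusted p under 0.05; 0% of all genes were called. The median difference was 0.06, against -0.09 for all genes. Within slides 1, 2 and 3, which each held 1 BMMC array of each genotype, the median over members was 0.04, -0.07 and 0.02. Leaving out Prim2, the differences lay between -0.23 (Tyms) and 0.45 (Rfc3).

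After coculture, 36 of 37 members were higher in knockout than in wild-type cells by their group means, but 0 passed in limma and 0 had an unadjusted p under 0.05, and 0% of all genes were called. The median difference was 0.48, against 0.04 for all genes, and the member below 0 was Prim2. With normexp background correction this direction was lost, with 18 of 37 above 0 and a median of -0.02, against 0.07 for all genes; knockout cocultured 2 then had a replication median of 0.90, below wild-type cocultured 1 (1.02). Between slides the sign turned. On slide 2, knockout minus wild-type gave a median of 1.11 with 35 of 37 members above 0, and on slide 4 a median of -1.21 with 1 of 37 above 0. The fibroblast markers differed by -2.48 on slide 2 and by 2.89 on slide 4. Slides 1 and 3 held cocultured cells of 1 genotype each.

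Without the cocultured pair of slide 4, which leaves 3 wild-type and 2 knockout arrays, 26 members were called higher in knockout cocultured cells and 0 lower, against 24.8% of all genes called and 15.3% called higher. The median difference was 1.22, against 0.04 for all genes. Of the arrays left, wild-type 2 and 4 were on slide 3, wild-type 1 and knockout 2 on slide 2, and knockout 1 on slide 1. Slide and genotype are thus partly confounded in these calls and in those for the interaction below. In 31 of 37 members every knockout array lay above every wild-type array, against 31.1% of all genes. The 26 included all 4 genes of helicase activation, all 3 of deoxynucleotide supply, 7 of 10 of origin recognition and helicase loading, 3 of 5 polymerase and primase genes and 3 of 4 G1/S regulators. The largest differences were in Cdc6 (2.31, SE 0.43, adjusted p = 0.0056), Orc1l (2.22, SE 0.59, adjusted p = 0.0221) and Rrm2 (2.21, SE 0.40, adjusted p = 0.00514), and the lowest adjusted p in Pcna (1.43, SE 0.20, adjusted p = 0.00187). Cdt1, at -0.08 (SE 0.44), was the member below 0. The fibroblast markers moved too, with 17 of 20 lower in knockout cells and a median of -4.06, and their part in the replication values was not tested.

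That count varied with the arrays and the scaling. It was 4 when knockout cocultured 2 was left out as well, 14 when knockout cocultured 1 or wild-type cocultured 4 was, 16 without wild-type cocultured 2 and 30 without wild-type cocultured 1. The count of members was 8 with normexp correction, 15 with quantile normalization, 29 with median scaling, 20 with slide as a block and 1 of 20 members tested with the authors' values. The share of all genes called in these settings is not given. In the same order, the median difference of all genes was 0.20, 0.04, 0.62, 0.11 and -0.16. That of the members was 0.47, 0.96, 1.80, 0.92 and 0.77, so with median scaling all genes had shifted as well. Of 37 members, 33 were above 0 with normexp, and none of these settings called a member lower. Without the whole of slide 4 the count was 25, against 26% of all genes called.

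**Figure D4:**
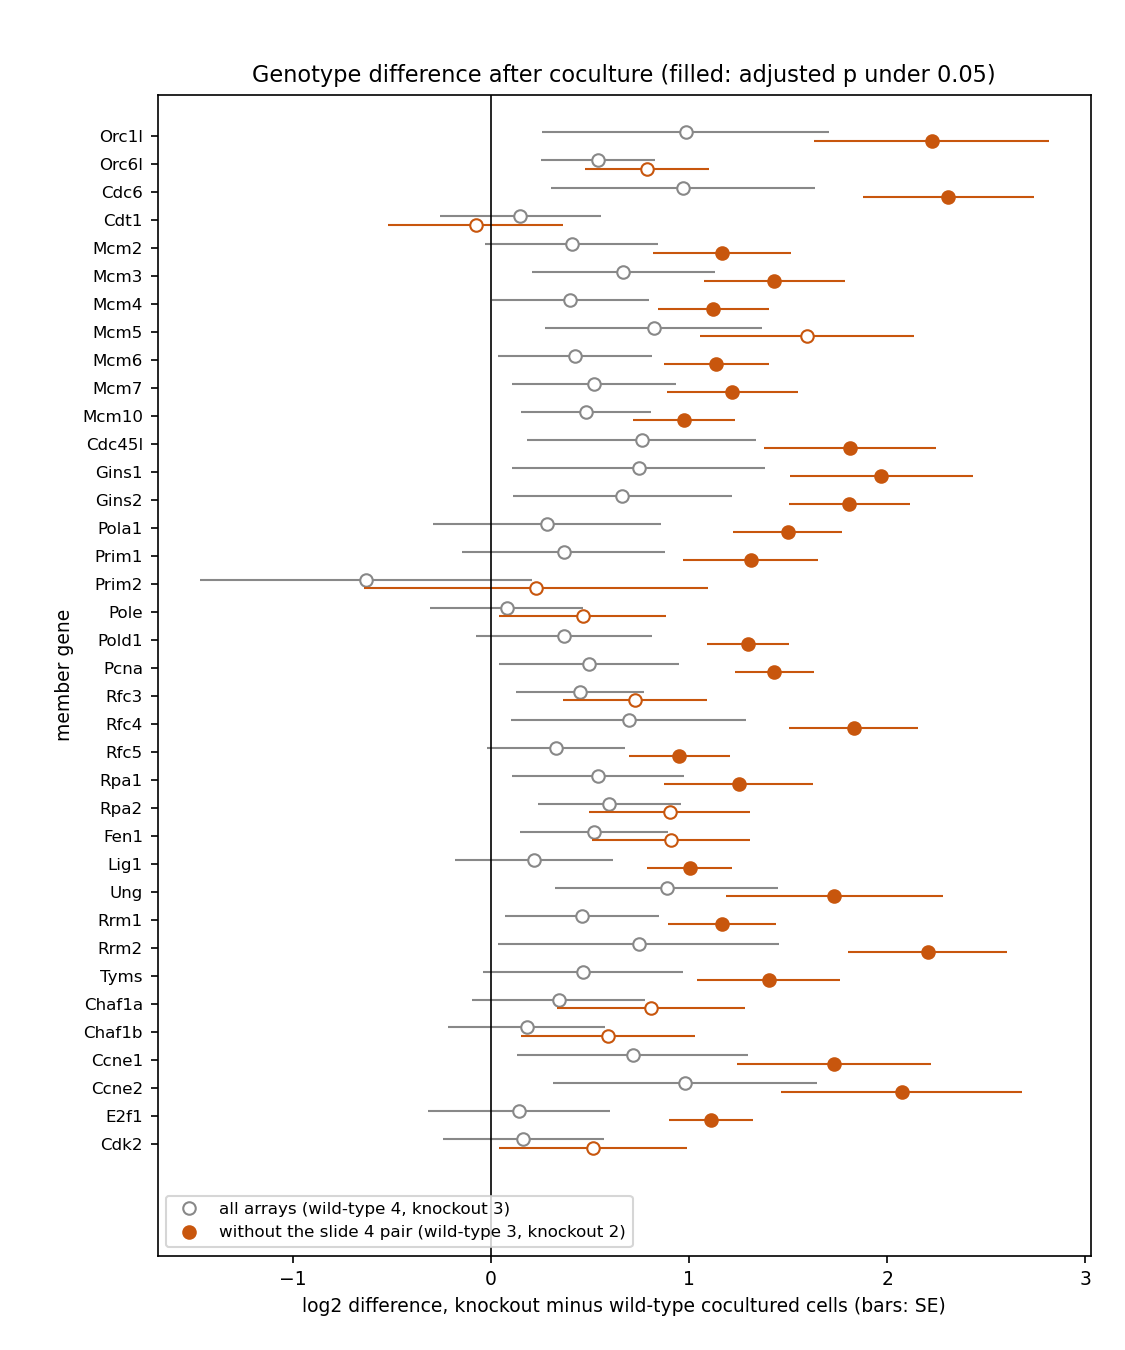
Log2 difference between knockout and wild-type cocultured cells for each of the 37 genes, with its SE, for all 7 cocultured arrays (grey) and without the slide 4 pair (orange); filled points have an adjusted p under 0.05. With all arrays 36 of 37 lie above 0 and none is filled, and without the pair 26 are filled, with Cdt1 at -0.08 and Prim2 at 0.23.

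A difference between genotypes in the response to coculture was likewise not detected with all arrays: 0 of 37 members and 0% of all genes passed for the interaction, and 0 members had an unadjusted p under 0.05. Without the slide 4 pair 11 members passed, all higher in the knockout response, against 12.1% of all genes called and 8.38% called higher. Pcna (1.6, SE 0.26, adjusted p = 0.00857), Pold1 (1.37, SE 0.27, adjusted p = 0.0155), Rfc4 (2.02, SE 0.43, adjusted p = 0.0182) and Cdc6 (2.47, SE 0.56, adjusted p = 0.0234) had the lowest adjusted p. That count was 0 with normexp correction and ranged from 1 to 20 when 1 further array was left out.

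Where a gene had more than 1 kept probe, the signs were compared. Of 10 such members, 7 had the same sign on their probes in wild-type coculture, and Ccne1, Cdk2 and Tyms did not. The Tyms probes still tracked each other (r = 0.973) around a change near 0 (-0.08 and 0.17). The second Ccne1 probe was well above background on 4 of 14 arrays and correlated with the first at r = 0.18, so Ccne1 values rest on 1 probe. The second E2f1 probe gave -1.20 in wild-type coculture, beside -0.76 for the one used, and the second Cdc6 probe -1.46, beside -1.21. Of the 26 members called between cocultured genotypes without the slide 4 pair, 8 had another kept probe, and it was called in 5. The rest of the 26 had 1 kept probe each, so their calls rest on that probe. Among the 8, the other probe was not called in Ccne1, Mcm3 and Ccne2. The second Mcm3 probe was well above background on 14 of 14 arrays (r = 0.528) and gave 0.82 (adjusted p = 0.0825 in limma) beside 1.43. The second Ccne2 probe gave 2.09 (adjusted p = 0.0709 in limma) beside 2.07.

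Further genes of the pathway were counted from lists. Of 45 further replication genes, 0 rose and 2 fell in coculture of wild-type cells, where 12.6% of all genes were called, Mcm9 by 0.83 (SE 0.20, adjusted p = 0.0178) and Rrm2b, the p53-induced reductase subunit, by 1.31 (SE 0.34, adjusted p = 0.0244), and Mcm9 fell in knockout cells as well. Between cocultured genotypes 42 of the 45 were above 0 and 0 passed; without the slide 4 pair 18 were higher and 0 lower, against 15.3% of all genes called higher. Of 31 further regulators of G1/S, 3 rose and 1 fell in each genotype, a share near that of all genes (12.6% called in wild-type and 14.5% in knockout cells). Ccnd1, cyclin D1, rose by 3.67 (SE 0.75, adjusted p = 0.00695) in wild-type and by 4.25 (SE 0.75, adjusted p = 0.00324) in knockout cells. Cdkn2b, an inhibitor of the cyclin D kinases, rose by 2.77 (SE 0.47) and 3.47 (SE 0.47). Mycn fell by 2.56 (SE 0.74) in wild-type cells and fell by 4.32 (SE 0.74) in knockout cells, and Fbxw7, which marks cyclin E for degradation, rose by 1.23 (SE 0.34) and 1.37 (SE 0.34). Of 25 G2/M genes 0 passed in wild-type and 1 rose in knockout cells, with median changes of 0.38 and 0.45 where the replication members had -0.21 and 0.33. On wild-type cocultured arrays the G2/M median stayed between 1.6 and 2.14 while the replication median ran from 0.48 to 2.03. On knockout cocultured arrays it was 2.29, 2.51 and 1.4, high and low on the same arrays as the replication median.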

How the data were processed

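Labelled RNA (450 ng per array, per the labels' protocols) was read as spot intensity, which the authors deposited as scanner files made with Agilent Feature Extraction 9.5.1.1, per the submitters' processing notes. Their annotated table, whose raw intensity columns are scanner values, also holds the authors' normalized intensity, used as an alternative; 28 other columns of per-sample values in the tables were not used. The members and gene lists were chosen with earlier results of these data known.

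From the log2 of each processed signal, that array's 75th percentile was subtracted. Control spots and 74 to 326 outlier spots per array were left out. A probe was kept if 3 or more arrays read it well above background (23626 probes), 32 of them were dropped for missing values, and the probe of highest mean stood for each gene. A value was needed on at least 2 arrays of every group; 276 genes tested, none of them a member, had a missing value. The 4 groups were fitted together with limma 3.58.1 in R 4.3.3, with 5 contrasts, two-sided tests and Benjamini-Hochberg adjustment over 16022 genes, and called at an adjusted p under 0.05. The fit was tested on simulated data. Full statistics are given for members that passed, and otherwise for those of lowest adjusted p in each role; per-array values of further members were chosen after they were seen. Alternatives covered background correction, scaling, probe filter and choice, blocks, slide 4 and omission of each array. Same-numbered wild-type and knockout BMMC arrays, which shared slides, deviated together across genes (r = 0.197, 0.497 and 0.492); cocultured ones did not (-0.43, -0.15 and -0.54).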

Additional observations from a re-analysis of the deposited data

Results flagged for a closer look

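A test for an array far from the rest was made in 76 sets of 4 arrays (37 members and their array median, in knockout BMMCs and wild-type cocultured cells). Of these sets 4 had one, a share near the 1 in 20 that chance gives in independent sets. These sets share arrays and their members moved together, so the share cannot decide whether an array stands apart by chance. Wild-type cocultured 3 stood above the other 3 arrays in Pcna (6.59, against 5.74 to 5.86), Mcm4 (4.21, against 3.52 to 3.63) and Pold1 (1.34, against 0.29 to 0.45). Knockout BMMC 3 stood below the others in Cdc6 (-1.90, against -1.03 to -0.87).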

How the results depend on the processing

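With the replicate block, members called in the 5 comparisons were 1, 0, 0, 0 and 0, so it changed no call; the numbers pair the BMMC arrays of the 2 genotypes and not the cocultured ones. In wild-type coculture, 2 members passed with quantile normalization, with slide as a block or with only the 2 groups compared, 7 without slide 4 and 6 without its cocultured pair. In knockout coculture the counts were 1 with normexp, 8 without slide 4 and 11 without the pair. Between cocultured genotypes they were 25 and 26, and for the interaction 8 and 11. Leaving out each array in turn gave 0 to 3 in wild-type coculture (3 without wild-type cocultured 3), 0 to 7 in knockout coculture (7 without knockout cocultured 3) and 0 to 0 in the other 3. Over all genes these omissions gave 1105 to 2617 calls in wild-type and 1059 to 3347 in knockout coculture. Settings added after seeing the data, without the pair and with normexp, quantile, median scaling, the authors' values and slide as a block in this order, gave 4, 6, 6, 1 and 8 in wild-type coculture, 5, 3, 6, 1 and 10 in knockout coculture, 8, 15, 29, 1 and 20 between cocultured genotypes and 0, 5, 11, 0 and 9 for the interaction. The range of the array medians, 1.97 with the main scaling, was 2.65 with median scaling. It was narrower with the others: 0.25 to 1.73 with normexp, 0.52 to 2.28 with quantile normalization and 8.64 to 10.04 with the authors' values. The last range covers only the 20 members tested with those values, so scaling is not its only difference. With all arrays, median scaling moved the median of all genes from 0.04 to 0.31 between cocultured genotypes, and the authors' values moved it to -0.19. Without the pair it was 0.62 with median scaling and -0.16 with the authors' values. The share of all genes called in the settings added without the pair is not given. Changes of sign occurred in members that were not called with all arrays, of which Mcm10 was called in knockout coculture without slide 4 or its pair. In knockout coculture, Orc6l was at -0.012 with normexp, Mcm10 at -0.049 with normexp and -0.031 with the authors' values, and Pole at 0.045 without slide 4, 0.012 without the pair and -0.61 to 0.012 when each array was left out. Between cocultured genotypes, Chaf1b was at -0.31 with normexp, -0.22 with the authors' values and -0.034 (without knockout cocultured 1) to 0.52 when each array was left out. The cause of these changes was not tested. Differences within a slide rest on 1 or 2 arrays a group and were given as values with no test. With 3 or 4 arrays a group, dim members such as Ccne2, well above background on 2 of 4 wild-type cocultured arrays, are measured least well.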
